A study of Mus musculus with 16 samples.

Results

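The data described here are the RNA levels of 33 genes of B cells and of the follicles that B cells form, out of the 24940 genes counted, in the terminal ileum of 16 mice. The genes were chosen by name, as genes known to mark B cells or to build B-cell follicles, and 33 of 33 were found in the count table, each once. Bcl6fl/fl mice carry loxP sites around part of Bcl6, which encodes a repressor of transcription, and served as controls (WT). Bcl6LKO mice (LKO) carry the same Bcl6 fl/fl alleles and also Albumin-Cre (Alb-cre), which is active in hepatocytes, so that the gene is deleted in the liver and not by design in the ileum or in B cells. Both genotypes were sampled in males and in females, which gave 4 groups with 4 libraries in each, called here by sex and genotype. All mice were on the C57BL/6 strain with no treatment named, and their age is not given in the sources used here. The tissue was the end of the ileum next to the cecum, rinsed and homogenized whole, for which the sample labels and the study's methods give different lengths, so every cell type of the gut wall contributed RNA. The study asked how loss of hepatic Bcl6 alters bile acid feedback between ileum and liver, and B-cell genes were not its question.

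B cells recognize antigen through the B cell receptor, a membrane immunoglobulin that signals through the CD79A and CD79B chains. In the ileum they gather in follicles, which lie in Peyer's patches and in smaller isolated follicles of the mucosa, while the plasma cells derived from them are scattered through the lamina propria. Follicles form where stromal cells make the chemokine CXCL13, which attracts B cells that carry its receptor CXCR5, and B cells in turn keep that stroma in place with lymphotoxin.

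The deepest library, female LKO replicate 1, held 60.3 M gene counts (M, mega), and the other 15 held between 15.7 and 20.5 M. Levels are counts per M (CPM) scaled by trimmed mean of M-values over the 16 libraries, and genes are compared with each other only as RPKM, which is CPM per kilobase of exon. A count of 0 allows up to 3 counts, which is between 0.0485 and 0.190 CPM here, and this limit covers counting error only. In all 24 pairs of replicates the counts differed by more than sampling noise, where chi-square over its degrees of freedom was 9.26 to 30.8. Nothing in the labels says how the animals of a group were related or housed, so the p-values measure the spread between these libraries. Bcl6 itself was at 15.8 ± 1.55 CPM (SD, n = 4) in male WT, 18.9 ± 1.97 in male LKO, 12.1 ± 2.91 in female WT and 20.7 ± 5.03 in female LKO. Bcl6 did not pass the threshold between the genotypes by edgeR, with an adjusted p of 0.285 in females (log2 fold change 0.77, SE 0.21) and 0.879 in males (0.26, SE 0.11). DESeq2 gave an adjusted p of 0.0190 for Bcl6 in females, and 0.517 without the 4 libraries described next. Over both sexes the log2 fold change of Bcl6 was 0.51 (SE 0.13), with an adjusted p of 0.121 by edgeR and of 0.0139 by DESeq2, and without the 4 libraries 0.41 (SE 0.11), with 0.254 and 0.0647. The level of Bcl6 in whole ileum checks no label, since hepatocytes are where the Cre acts.

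In all, 4 libraries stood apart from the other 12 in the level of the B-cell genes: male WT replicate 2, female WT replicate 3 and female LKO replicates 2 and 3. The summed level of the 33 genes was 113.6, 344.0, 127.2 and 114.1 CPM in male WT replicates 1 to 4. It was 123.5, 124.1, 116.6 and 138.6 CPM in male LKO. In females it was 147.2, 153.9, 242.9 and 123.9 CPM in WT and 157.0, 532.0, 994.1 and 144.7 CPM in LKO. The 12 other libraries thus lay within 1.38-fold of each other, whereas the 16 libraries spanned 8.75-fold and the 4 female LKO libraries 6.87-fold. Of the high libraries 1 was a male WT, 1 a female WT and 2 were female LKO, and none was a male LKO. The group means were 174.7 ± 113 CPM (SD, n = 4) in male WT, 125.7 ± 9.24 in male LKO, 167.0 ± 52.2 in female WT and 457 ± 401 in female LKO. These values were nearly the same under relative log expression scaling, where female LKO had 457 ± 401 CPM, and with no scaling factors, where it had 466 ± 412 CPM. In bulk tissue, fewer or more B cells and less or more RNA per B cell cannot be told apart. Each result below is given with all libraries and, where it changes, without these 4, a set that was picked from the values of the same genes.

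**Figure D1:**
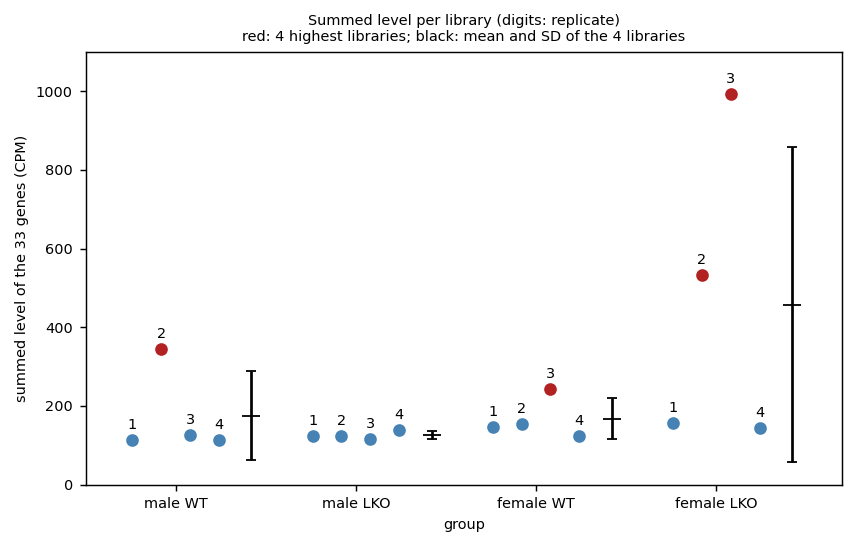
Summed level of the 33 genes (y axis, CPM) in each library of the 4 groups (x axis), with the replicate number above each point and the mean and SD of the 4 libraries in black. The 4 red points lie between 242.9 and 994.1 CPM and the 12 blue points between 113.6 and 157.0 CPM.

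The 33 genes were high in largely the same libraries. Female LKO replicate 3 held the highest level of all 33, while 11.98% of the 15598 genes tested over the 16 libraries were highest there. For 29 of the 33 (87.9%) the 4 highest libraries were exactly those 4, against 164 of the 15598 genes (1.05%), and for 28 they came in the order female LKO 3, female LKO 2, male WT 2 and female WT 3. The 4 exceptions were Cd72, S1pr2, Tnfrsf13b and Vpreb3. Since the 4 libraries were picked on the sum of the same genes, these counts are a description. Over the other 12 libraries, the genes followed each other less closely: Spearman's correlation of each gene with the sum of the other 32 had a median of 0.497, compared with 0.779 over the 16. It ran from -0.71 for Cxcl13 to 0.89 for Cd79a and was near 0 for Bank1 (-0.042), Ms4a1 (0.014) and Tnfrsf13b (0.063). These correlations share the libraries and their depth, and they are given as a description. The coefficient of variation within each group was taken over the members with a mean of at least 1 CPM there. Its median was 74.6% in male WT (31 members), 15.5% in male LKO (25), 39.7% in female WT (31) and 93.8% in female LKO (33). Across all genes with that mean it was 9.01% to 9.86% in the same groups. Some members, such as Fcer2a in male WT, reached that mean only through a high library. The 4 medians of the members thus cover different genes and are a description. Of the 32 genes whose median count was above 3, 15 were at least 10 times their median level in the highest library.

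**Figure D2:**
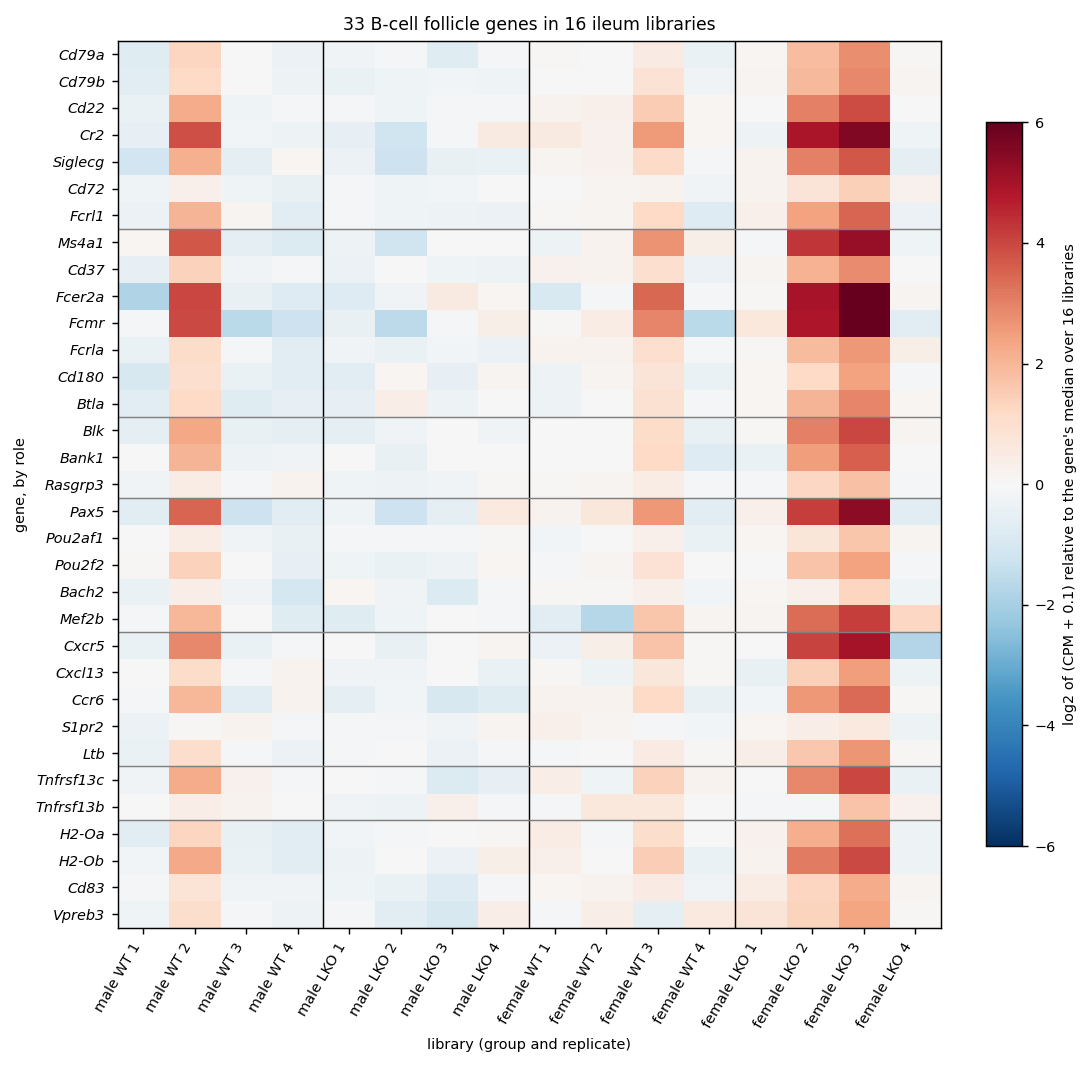
Level of each gene (rows, ordered by role, grey lines between roles) in each library (columns, black lines between groups), as the log2 of CPM plus 0.1 relative to the gene's median over the 16 libraries. Red columns at male WT 2, female WT 3, female LKO 2 and female LKO 3 run through nearly all rows, and S1pr2, Bach2, Cd72, Pou2af1 and Tnfrsf13b are the palest rows.

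The B cell receptor chains and co-receptors held the genes with the highest levels per length in most libraries. Cd79a (mm10 chr7:24897511-24902197, plus strand), which encodes the signalling chain CD79A, had the highest mean of all 33 genes over the 16 libraries at 13.6 RPKM. That mean rests on the high libraries: Cd79a was the highest member in 3 of those 4 and in 2 of the other 12, where Cd72 was the highest in 9 and Pou2af1 in 1. Its level in replicates 1 to 4 was 6.79, 27.98, 11.4 and 8.83 in male WT, 9.88, 10.8, 6.99 and 10.9 in male LKO, 12.1, 11.6, 16.1 and 8.79 in female WT and 12.4, 42.2, 78.8 and 11.9 in female LKO CPM. The 4 high libraries stood at 16.1 CPM and above, all others at 12.4 CPM and below. Within each sex the genotype groups of Cd79a overlapped. In LKO the sexes did not, with females at 11.9 CPM and above and males at 10.9 CPM and below. Between the genotypes its log2 fold change was 1.56 (SE 0.71, adjusted p 0.4605) in females and -0.49 (SE 0.48, adjusted p 0.999) in males by edgeR. Without the 4 libraries the same values were 0.18 (SE 0.15) and 0.11 (SE 0.19), so that the male value changed sign. Cd79b (mm10 chr11:106311341-106314562, minus strand), the partner chain, was at 5.42, 19.4, 8.51 and 6.75 in male WT, 6.33, 7.02, 7.52 and 7.06 in male LKO, 8.73, 8.44, 15.6 and 7.25 in female WT and 9.37, 33.1, 62.2 and 9.38 in female LKO CPM. It followed Cd79a closely: the ratio of Cd79a to Cd79b, as RPKM, was 0.956 to 1.34 in the 4 high libraries and 0.861 to 1.45 in the others, which overlap. Its log2 fold change was 1.49 (SE 0.74, adjusted p 0.487) in females and -0.50 (SE 0.40) in males.

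The other 5 members of this group differed in how steeply their levels changed between libraries. Cd22, an inhibitory co-receptor that binds sialic acid, ranged over 3.496 to 73.2 CPM (mean 12.7) and was 3.496 to 5.78 CPM in the 12 libraries outside the 4. Siglecg, another inhibitory sialic acid receptor, ranged over 0.713 to 24.96 CPM (mean 4.42). Cr2, the complement receptor CD21 of mature B cells and follicular dendritic cells, was 0.119 to 0.632 CPM in the 12 libraries, with 2 counts in the lowest library, and reached 7.04 CPM in male WT 2 and 23.1 CPM in female LKO 3. These 3 genes were low outside the 4 libraries and steeply higher within them. Fcrl1, an Fc receptor-like protein of B cells, ranged over 0.824 to 17.4 CPM (mean 3.17). Cd72, an inhibitory co-receptor, was flatter, at 10.4 to 37.7 CPM (mean 15.9), with 13.7, 15.8, 16.2 and 11.9 CPM in female WT and 16.4, 23.6, 37.7 and 16.5 CPM in female LKO. Of the 31 members tested in females it was the only one whose female genotype groups did not overlap, by a margin of 16.4 against 16.2 CPM, while 6.3% of the genes tested in females had groups without overlap. Its log2 fold change in females was 0.70 (SE 0.29, adjusted p 0.401) by edgeR. The Cd72 count is uncertain, because Cd72 overlaps Tesk1 on the other strand and the strand option of the counting is not given.

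Other surface proteins and Fc receptor-like proteins included the steepest genes. Cd37 (mm10 chr7:45233632-45238839, minus strand), a tetraspanin of B cells, was at 4.81, 18.1, 5.803 and 6.35 in male WT, 5.42, 6.84, 5.64 and 5.501 in male LKO, 8.22, 7.94, 13.9 and 5.39 in female WT and 7.69, 29.2, 49.6 and 6.83 in female LKO CPM. The 4 libraries again held its highest values, at 13.9 CPM and above, and the others stayed at 8.22 CPM and below. Its log2 fold change was 1.37 (SE 0.76, adjusted p 0.519) in females and -0.57 (SE 0.44, adjusted p 0.999) in males by edgeR. Fcrla (mm10 chr1:170917594-170927583, minus strand), an intracellular Fc receptor-like protein, was at 2.48, 7.17, 3.099 and 2.03 in male WT, 2.89, 2.497, 2.94 and 2.59 in male LKO, 3.91, 3.89, 6.74 and 3.19 in female WT and 3.43, 12.6, 20.5 and 4.29 in female LKO CPM. Outside the 4 libraries it lay at 4.29 CPM and below, and in them between 6.74 and 20.5 CPM.

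Ms4a1 encodes CD20, the classical surface marker of mature B cells. It was 0.357 to 1.26 CPM in the 12 libraries and 13.9, 6.74, 20.4 and 40.1 CPM in male WT 2, female WT 3, female LKO 2 and female LKO 3. Fcer2a, the low-affinity IgE receptor CD23 of follicular B cells, was 0.0507 to 0.646 CPM against 8.19, 5.48, 15.9 and 35.2 CPM in the same 4. Fcmr, the IgM Fc receptor, was 0.05496 to 0.646 CPM against 7.23, 3.51, 13.8 and 30.0 CPM. In 12 of the 16 ilea, therefore, these 3 markers of mature B cells were low, with 1 to 6 counts in their lowest libraries. Cd180, a Toll-like receptor relative of B cells, ranged over 1.57 to 17.3 CPM (mean 4.29). Btla, an inhibitory receptor that B cells and T cells share, ranged over 2.08 to 27.2 CPM (mean 5.91).

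Among genes of B cell receptor signalling, Rasgrp3 (mm10 chr17:75435905-75529053, plus strand), an activator of Ras downstream of diacylglycerol, had the highest mean over the 16 libraries at 2.13 RPKM. It was above Blk per length in 13 libraries, and Blk was above it in male WT 2 (3.25 against 2.32 RPKM), female LKO 2 (5.33 against 4.05) and female LKO 3 (10.5 against 5.86). The level of Rasgrp3 was 6.79, 10.8, 7.61 and 9.14 in male WT, 6.69, 6.48, 6.93 and 8.303 in male LKO, 8.27, 8.94, 10.7 and 7.1997 in female WT and 7.37, 18.9, 27.3 and 7.42 in female LKO CPM. The 4 libraries were its 4 highest, but male WT 2 and female WT 3, at 10.8 and 10.7 CPM, stood only a little above male WT 4 at 9.14 CPM. Blk (mm10 chr14:63372837-63417187, minus strand), a Src family kinase of B cells, was at 0.963, 7.996, 1.07 and 1.02 in male WT, 0.962, 1.31, 1.53 and 1.297 in male LKO, 1.49, 1.55, 3.398 and 1.099 in female WT and 1.5997, 13.1, 25.9 and 1.695 in female LKO CPM. Unlike Rasgrp3 it was separated by a wide gap, at 3.40 to 25.9 CPM in the 4 libraries and 0.962 to 1.695 CPM in the others. The log2 fold change of Blk was 2.45 (SE 1.10, adjusted p 0.455) in females and -1.07 (SE 0.83, adjusted p 0.999) in males by edgeR. Bank1, a B cell scaffold protein, ranged over 0.824 to 18.8 CPM (mean 3.33).

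Transcription factors of the B lineage held both flat and steep genes. Pou2af1 (mm10 chr9:51213690-51240079, plus strand) encodes OBF1, a coactivator that B cells and plasma cells both use. Its level was 21.2, 30.02, 18.9 and 15.9 in male WT, 20.1, 20.3, 20.4 and 23.1 in male LKO, 19.8, 22.5, 26.7 and 16.8 in female WT and 23.9, 36.7, 70.4 and 24.7 in female LKO CPM. The 4 libraries were highest, yet male WT 2 at 30.0 CPM and female WT 3 at 26.7 CPM were close to female LKO 4 at 24.7 CPM. Its log2 fold change was 0.85 (SE 0.40, adjusted p 0.464) in females and -0.027 (SE 0.16) in males. Pou2f2 (mm10 chr7:25091115-25132460, minus strand), the DNA-binding partner OCT2, was at 2.74, 7.04, 2.704 and 1.83 in male WT, 2.23, 1.96, 2.11 and 2.85 in male LKO, 2.53, 2.94, 4.88 and 2.58 in female WT and 2.59, 8.97, 14.5 and 2.49 in female LKO CPM. It was 4.88 to 14.5 CPM in the 4 libraries and 1.83 to 2.94 CPM in the rest.

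Pax5, which fixes B cell identity and is shut off in plasma cells, was at 0 counts in male WT 3 and male LKO 2 and reached 9.82 CPM in female LKO 3. Its level was 0.0507, 2.54, 0 and 0.0508 CPM in male WT, 0.101, 0, 0.0587 and 0.259 CPM in male LKO, 0.172, 0.278, 1.32 and 0.05496 CPM in female WT and 0.194, 4.15, 9.82 and 0.05298 CPM in female LKO. In the 12 libraries outside the 4 it was 0.278 CPM and below. Bach2, a repressor that holds back plasma cell differentiation and is also used by T cells, was flatter at 3.30004 to 17.2 CPM (mean 7.32). Mef2b, a factor of germinal centre B cells, ranged over 0 to 5.72 CPM (mean 0.85999) and was at 0 counts in female WT 2. The Mef2b count is uncertain, because the table also counts Gm45929, which overlaps it on the same strand.

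Genes that form follicles and guide cells into them were highest in the same libraries as the B cell genes. Cxcl13 (mm10 chr5:95956939-95961068, plus strand), the chemokine made by follicle stroma, was at 4.86, 10.5, 4.56 and 5.69 in male WT, 4.204, 4.16, 4.93 and 3.74 in male LKO, 5.11, 3.94, 7.84 and 5.22 in female WT and 3.59, 13.4, 28.1 and 3.97 in female LKO CPM. It was 7.84 to 28.1 CPM in the 4 libraries and 3.59 to 5.69 CPM in the others. Its log2 fold change was -0.58 (SE 0.24, adjusted p 0.899) in males, the smallest p of the members there, and 1.12 (SE 0.75, adjusted p 0.582) in females by edgeR. Ltb (mm10 chr17:35194507-35196305, plus strand), the lymphotoxin chain that lymphocytes use to maintain the stroma, was at 3.24, 8.95, 4.0002 and 3.30004 in male WT, 4.103, 4.28, 3.29 and 3.94 in male LKO, 3.96, 4.28, 6.14 and 4.56 in female WT and 5.64, 13.5, 27.04 and 4.503 in female LKO CPM. The same 4 libraries led, although female WT 3 at 6.14 CPM was near female LKO 1 at 5.64 CPM.

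Cxcr5, the receptor of CXCL13, was 0.159 to 0.9996 CPM in the 12 libraries and 6.22, 2.74, 14.4 and 27.5 CPM in male WT 2, female WT 3, female LKO 2 and female LKO 3. Cxcr5 overlaps Bcl9l on the other strand. Ccr6, a chemokine receptor of B cells that enter gut follicles, ranged over 0.4698 to 11.7 CPM (mean 2.22). S1pr2, which confines germinal centre B cells to the follicle but is also made by other cells, was the flattest of the 33 at 6.03 to 11.7 CPM (mean 8.19): its highest library was 1.49 times its median. Ligand and receptor therefore had different spans, since the highest library of Cxcl13 was 5.74 times its median and that of Cxcr5 35.7 times.

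The receptors of the B cell survival factors BAFF and APRIL separated. Tnfrsf13c (mm10 chr15:82221742-82224380, minus strand) encodes the BAFF receptor of mature B cells, and was at 1.47, 8.44, 2.08 and 1.62 in male WT, 1.67, 1.61, 0.9397 and 1.19 in male LKO, 2.299, 1.44, 4.66 and 2.03 in female WT and 1.78, 13.2, 28.8 and 1.27 in female LKO CPM. It was 4.66 to 28.8 CPM in the 4 libraries and 0.9397 to 2.299 CPM in the others. Tnfrsf13b (mm10 chr11:61140835-61147642, plus strand) encodes TACI, which activated B cells and plasma cells carry, and was at 1.82, 2.54, 2.197 and 1.83 in male WT, 1.62, 1.49, 2.35 and 1.71 in male LKO, 1.72, 2.999, 2.96 and 1.92 in female WT and 1.73, 1.71, 6.28 and 2.28 in female LKO CPM. TACI was high only in female LKO 3, at 6.28 CPM, while female LKO 2 at 1.71 CPM lay among the lowest libraries. Per length, TACI was above the BAFF receptor in 13 of the 16 libraries, among them all 12 outside the high ones. The order was the opposite in male WT 2 (3.41 RPKM for TACI against 4.33), female LKO 2 (2.29 against 6.80) and female LKO 3 (8.43 against 14.8).

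Of the class II loading, activation and precursor genes, Cd83 (mm10 chr13:43785112-43803133, plus strand), a surface protein of activated B cells and dendritic cells, had the highest mean at 6.12 RPKM and was the highest of them in 14 libraries, while H2-Ob was in the other 2. The level of Cd83 was 8.87, 17.2, 8.34 and 8.33 in male WT, 7.902, 7.13, 5.52 and 8.87 in male LKO, 10.3, 11.2, 13.6 and 8.13 in female WT and 13.3, 23.6, 45.3 and 10.7 in female LKO CPM. Female WT 3 at 13.6 CPM was scarcely above female LKO 1 at 13.3 CPM, while the other high libraries were at 17.2 CPM and above. Its log2 fold change was 1.09 (SE 0.49, adjusted p 0.454) in females and -0.52 (SE 0.25, adjusted p 0.965) in males by edgeR. H2-Ob (mm10 chr17:34238905-34245908, plus strand), a chain of the class II modulator H2-O that B cells use, was at 3.19, 17.3, 2.704 and 2.23 in male WT, 2.89, 3.45, 2.76 and 4.57 in male LKO, 4.48, 3.67, 9.92 and 2.69 in female WT and 4.12, 31.5, 56.8 and 2.86 in female LKO CPM. It was steep, at 9.92 to 56.8 CPM in the 4 libraries and 2.23 to 4.57 CPM in the others. H2-Oa, the other chain, ranged over 0.912 to 15.9 CPM (mean 2.92), and Vpreb3, a chaperone of immunoglobulin light chains, over 0.705 to 8.13 CPM (mean 2.17).

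The makeup of the sum differed between the 4 libraries and the other 12, as well as its size. With the levels taken as RPKM, transcription genes, of which Pou2af1 was the largest, made up 8.56% to 11.4% of the sum in the 4 libraries and 11.7% to 16.5% in the other 12. Other surface and Fc receptor-like proteins, which include Ms4a1, Fcer2a and Fcmr, made up 21.6% to 23.3% in the 4 and 12.5% to 15.6% in the 12. The ranges of these 2 roles did not overlap, and those of the other 5 roles did. The B cell receptor and co-receptor group was at 32.9% to 34.4% and at 31.5% to 37.6%. As RPKM, the ratio of Cd22 to Cd79a was 0.254 to 0.295 in the 4 libraries and 0.110 to 0.200 in the 12, and that of Cxcr5 to Cd79a 0.0860 to 0.176 and 0.00677 to 0.0552, of which the lowest rests on 3 counts of Cxcr5 in female LKO 4. The proportions among the 33 genes were therefore not the same at low and at high sums: Pou2af1 stayed between 6.21 and 9.65 RPKM in the 12 libraries, where Ms4a1 stayed between 0.174 and 0.617 RPKM. These libraries were split on the level of the same genes, so the ranges carry no test.

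Promoters that hold the octamer ATGCAAAT, the site of OCT factors and their coactivator OBF1, are shown because Pou2f2 and Pou2af1, which encode these proteins, are themselves among the 33 genes. RefSeq promoters (GRCm38.p6, the build that mm10 names, 250 bases before to 50 bases after the start) were found for 28 of the 33 genes, as 34 promoters of 300 bases. The octamer, searched on both strands, was in promoters of 3 of the 28 genes (10.7%), Ccr6, Mef2b and Vpreb3. Counted by promoter, it was in 3 of the 34, and in 1.74% of all 32851 promoters of that length. It began at position -68 in Ccr6, -85 in Mef2b and -45 in Vpreb3, counted from -1 at the base before the start. The EBF core CCCNNGGGA, a stretch bound by the B cell factor EBF1, was in a promoter of 1 gene (3.57%), Cd22, where matches on the 2 strands overlap. Counted by promoter, it was in 1 of the 34, and in 6.56% of all promoters. A match is a description of letters, and nothing follows from a missing one. The 3 octamer promoters and, for comparison, that of Cd79a, the member with the highest mean RPKM over the 16 libraries, read 5′ to 3′ on the gene's strand with the octamer, or its reverse complement ATTTGCAT, in capitals:
Ccr6 (chr17:8235793-8236092, plus strand): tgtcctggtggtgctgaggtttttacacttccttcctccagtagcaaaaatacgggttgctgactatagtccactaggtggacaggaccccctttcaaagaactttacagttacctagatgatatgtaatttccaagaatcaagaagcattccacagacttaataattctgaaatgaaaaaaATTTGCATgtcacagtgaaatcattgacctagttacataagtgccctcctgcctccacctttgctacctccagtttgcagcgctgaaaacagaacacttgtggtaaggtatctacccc
Mef2b (chr8:70152511-70152810, plus strand): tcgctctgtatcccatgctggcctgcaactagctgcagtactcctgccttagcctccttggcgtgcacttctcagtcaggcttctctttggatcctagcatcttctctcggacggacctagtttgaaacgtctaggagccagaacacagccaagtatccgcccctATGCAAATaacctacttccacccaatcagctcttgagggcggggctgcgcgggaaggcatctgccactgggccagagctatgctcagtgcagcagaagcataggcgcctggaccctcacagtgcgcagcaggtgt
Vpreb3 (chr10:75948050-75948349, plus strand): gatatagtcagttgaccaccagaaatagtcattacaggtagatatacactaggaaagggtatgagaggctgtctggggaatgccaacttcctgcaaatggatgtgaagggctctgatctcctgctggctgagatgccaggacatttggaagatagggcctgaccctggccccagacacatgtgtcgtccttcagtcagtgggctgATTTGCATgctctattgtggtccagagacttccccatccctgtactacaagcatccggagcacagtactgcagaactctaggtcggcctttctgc
Cd79a (chr7:24897247-24897546, plus strand): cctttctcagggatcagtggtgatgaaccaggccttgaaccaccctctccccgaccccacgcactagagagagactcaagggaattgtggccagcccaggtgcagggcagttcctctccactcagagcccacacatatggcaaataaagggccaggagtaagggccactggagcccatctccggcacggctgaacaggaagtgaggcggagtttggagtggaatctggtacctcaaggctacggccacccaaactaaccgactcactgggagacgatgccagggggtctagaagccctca

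The 3 genes with an octamer did not share 1 pattern: Ccr6 and Mef2b were steep, with all 4 high libraries on top, whereas Vpreb3 was lowest of those 4 in female WT 3, at 0.987 CPM, within the range of the other 12 libraries.

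Between the genotypes, none of the 33 genes passed an adjusted p of 0.05 in either sex. In females, where 31 members passed the filter on low counts, 0 were called by edgeR and 0 by DESeq2, while 0.0392% of the 15298 genes tested were called by edgeR. At an unadjusted p under 0.05 there were 2 (Vpreb3 and Cd72), with 11.7% of all genes. All 31 log2 fold changes were positive, from 0.17 to 3.25 with a median of 1.56, against a median of 0.0070 over all genes, and the smallest adjusted p was 0.398. Without female WT 3 and female LKO 2 and 3, the median over 29 members was 0.0082, 16 were positive and 13 negative. No member passed the threshold in females, where the replicates differed widely. The libraries left out were picked on the level of the same genes. The lower median without them is therefore a description and tests no genotype difference.

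In males, 28 members were tested and 0 were called by edgeR or by DESeq2, which gave an adjusted p for 23 of them, with 0.0527% of the 15169 genes called by edgeR. At an unadjusted p under 0.05 there were 2, Cxcl13 and Ccr6, with 5.29% of all genes. Of the 28 log2 fold changes 26 were negative, with a median of -0.51 and a smallest adjusted p of 0.899. Without male WT 2 the median became 0.081 and 20 were positive. The direction thus rested on 1 library, itself picked on the level of the same genes. No member had male genotype groups without overlap, as 2.87% of the genes tested had.

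Over both sexes with sex as a covariate, 33 members were tested and 0 were called by edgeR or DESeq2, with 0.269% of all genes called by edgeR. The 33 fold changes were all positive on the log2 scale, with a median of 0.60, and 0 had an unadjusted p under 0.05, with 11.2% of all genes. Without the 4 libraries the median over 30 members was 0.071, and 4 had an unadjusted p under 0.05 (Pou2af1, Cd72 and Btla higher in LKO, Cxcl13 lower) with 7.37% of all genes. The interaction of genotype and sex, tested on 33 members, gave 0 calls by edgeR or DESeq2, as it gave 0% of all genes by edgeR. At an unadjusted p under 0.05 there were 18 members with 5.64% of all genes, each with a lower genotype difference in males than in females. The median of the interaction was -1.999 on the log2 scale, and 0.049 without the 4 libraries. The members move together within a library, so these counts are not independent of each other.

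Males and females of 1 genotype were compared as well. In WT, 28 members were tested and 0 were called by edgeR or by DESeq2, which gave an adjusted p for 20 (0.25% of all genes by edgeR), with 0 members at an unadjusted p under 0.05 (13.9% of all genes) and a median log2 fold change of male over female of 0.028. No member had groups without overlap, which 8.16% of genes had. In LKO, all 28 members tested were lower in males, with a median log2 fold change of -1.88 and a smallest adjusted p of 0.126 by edgeR, for Cd72. By edgeR 0 were called (0.0984% of all genes), and 20 had an unadjusted p under 0.05 (22.6% of all genes). DESeq2 called 16 of the 28 lower in males, with 7.42% of all genes called, among them Cd72 (adjusted p 0.00712) and Cd83 (adjusted p 0.0193). The groups did not overlap for 10 of the 28 (Cd79a, Cd79b, Cd22, Cd72, Fcrla, Blk, Pou2af1, Ccr6, Ltb and Cd83), where 12.9% of genes had groups without overlap.

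Without the 4 libraries the sex difference kept its direction at a smaller size in LKO, while in WT the median turned from 0.028 to -0.29. In LKO, 25 of 28 members were then lower in males, with a median log2 fold change of -0.21, and 5 had an unadjusted p under 0.05 with 13.7% of all genes. In WT the level was lower in the males for 26 of 28 members, and 6 of the 28 had an unadjusted p under 0.05 with 13.7% of all genes. By edgeR 0 members were called in either genotype, with smallest adjusted p-values of 0.146 and 0.277, and DESeq2 called 1, Cd83 in LKO (adjusted p 0.0300). Cd83 was 7.902, 7.13, 5.52 and 8.87 CPM in male LKO against 13.3 and 10.7 CPM in female LKO 1 and 4, a log2 fold change of -0.72 (SE 0.17). The summed level was then 118 ± 7.68 CPM (SD, n = 3) in male WT, 126 ± 9.24 (n = 4) in male LKO, 142 ± 15.7 (n = 3) in female WT and 151 ± 8.71 (n = 2) in female LKO. The members move together, so the counts of directions are not independent, and leaving libraries out on the members' own level makes these values a description.

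**Figure D3:**
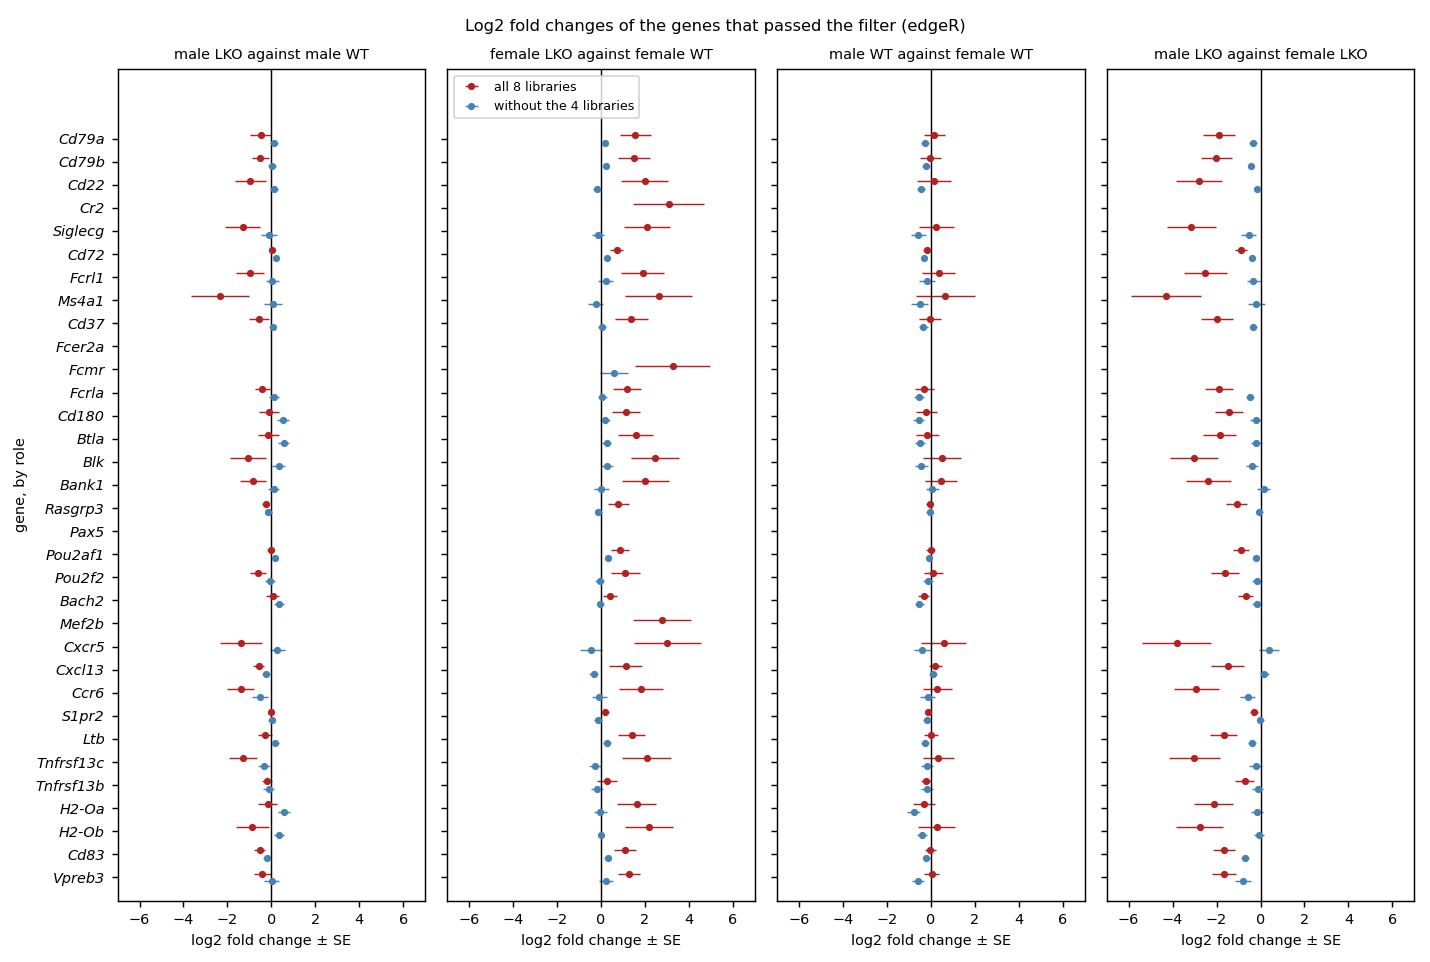
Log2 fold change with its SE (x axes) of the genes that passed the filter (y axis, by role) in the 4 comparisons of 2 groups, with all 8 libraries in red and without the 4 high libraries in blue; a gene with no point did not pass the filter. In females the red points lie at 0.17 to 3.25 and the blue points at -0.48 to 0.59, and in both comparisons of the sexes most blue points lie below 0.

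Genes of the same cells and structures that are not among the 33 came from lists written from general knowledge and followed the 4 libraries to different degrees. Of 18 genes of the B cell receptor pathway, 12 were highest in female LKO 3 and 7 had the 4 libraries as their 4 highest. The summed level of that list was 1.14, 1.09, 1.21 and 1.51 times its median in male WT 2, female WT 3, female LKO 2 and female LKO 3. Most of these kinases and adaptors, such as Syk and Lyn, are also made by other cells of the gut.

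Of 11 germinal centre genes, 8 were highest in female LKO 3 and 2 had the 4 libraries as their 4 highest. Their summed level was 1.01, 0.97, 1.16 and 1.44 times its median in male WT 2, female WT 3, female LKO 2 and female LKO 3, so it lay within the range of the 12 in the WT libraries. Of the plasma cell genes 4 of 10 were highest in female LKO 3 and 0 had the 4 libraries on top. Jchain, the joining chain of polymeric IgA and IgM, was 1720, 1432, 1205 and 2028 CPM in the 4 libraries, in that order, and 1076 to 1991 CPM in the others. Of 13 genes of follicle stroma and lymphoid organisers, 9 were highest in female LKO 3 and 3 had the 4 libraries on top, and their summed level was 1.06, 1.05, 1.33 and 1.73 times its median. Mfge8, a product of follicular dendritic cells and among those 3, was 117, 112, 166 and 247 CPM against 76.8 to 104 CPM. Pdpn and Ltbr, the latter the lymphotoxin receptor of the stroma, lay within the range of the 12 in all 4 libraries, and Il7, a survival factor of lymphocytes, was lowest of the 16 in female LKO 3 at 5.83 CPM. Of 9 genes of the epithelium over follicles and its M cells, 5 were highest in female LKO 3 and 1, Spib, had the 4 libraries on top. The summed level of the 9 was 1.00, 0.99, 1.19 and 1.40 times its median in the 4 libraries. Spib, a factor of M cells and B cells, was 21.3, 17.2, 38.9 and 68.05 CPM against 5.34 to 13.6 CPM. M cells also carry Gp2, which was 1.08 CPM in male WT 2 and 1.71 and 4.15 CPM in female LKO 2 and 3. In female WT 3 Gp2 was 0.493 CPM, within the 0.0563 to 0.901 CPM of the 12 libraries.

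T cell genes were highest in female LKO 3 for 11 of 12, yet by less: their summed level was 1.15, 1.34, 1.00 and 1.72 times the median in male WT 2, female WT 3, female LKO 2 and female LKO 3. For macrophages and dendritic cells 2 of 8 genes were highest in female LKO 3, and for ileal epithelium (9 genes), smooth muscle (7), adipocytes (5) and housekeeping genes (7) 0 were. Epithelial genes summed to 0.98, 1.02, 0.99 and 0.93 times their median in the 4 libraries. Smooth muscle summed to 0.98, 0.98, 1.45 and 1.32 times, and adipocytes to 0.67, 0.62, 2.28 and 1.67 times. The sums of both lists were thus also above their medians in female LKO 2 and 3. In male WT 2 and female WT 3 they were below, for smooth muscle only slightly. Single genes could differ from the sum: Myh11 was above its median in male WT 2 and female WT 3. The highest sums of both lists were in libraries outside the 4, at 1.52 times the median in female WT 2 for smooth muscle and 2.29 times in male WT 4 for adipocytes. Whether the part of the gut wall that was sampled had a part in these differences was not tested. Of the 109 genes in the 11 lists, 1 passed the threshold of edgeR in any of the 6 comparisons, the Paneth cell gene Lyz1, which was higher in male LKO than in male WT (log2 fold change 0.64, SE 0.09, adjusted p 0.00890).

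**Figure D4:**
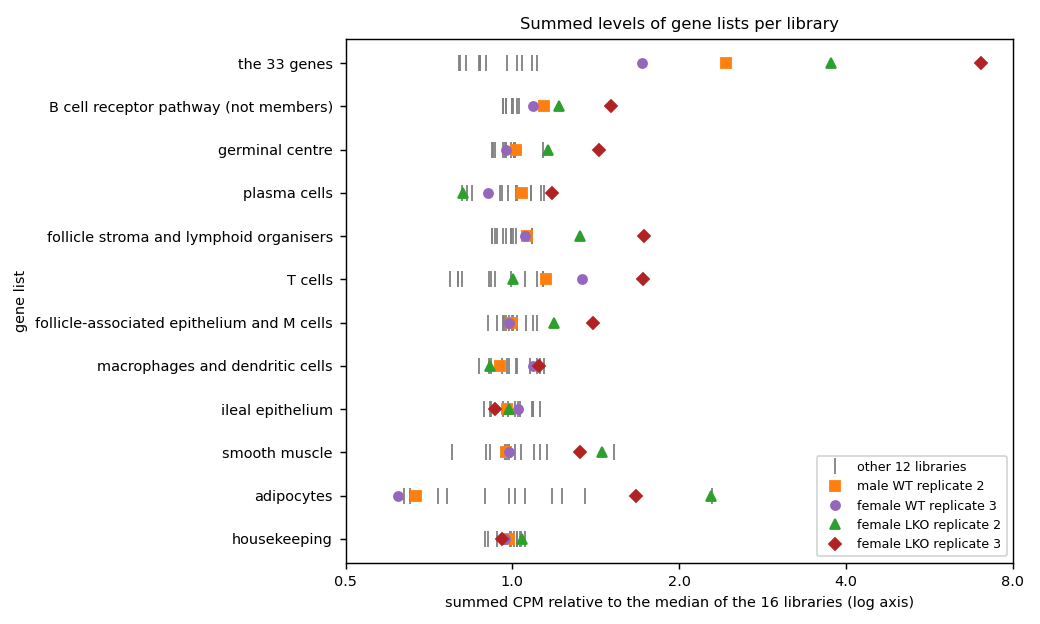
Summed CPM of the 33 genes and of 11 lists of other genes (y axis) relative to each list's median over the 16 libraries (x axis, log scale), with coloured symbols for the 4 high libraries and grey marks for the other 12. The 4 symbols spread far to the right for the 33 genes, up to 7.02 times the median, and stay within the grey marks for ileal epithelium and housekeeping genes.

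Of the 10 genes outside the 33 whose log2 CPM followed the mean of the members most closely over the 16 libraries, by Pearson correlation among genes with a mean of at least 1 CPM, 9 are named here: H2-Eb2, Clu, Ets1, Snn, Arhgdib, Mfge8, Rubcnl, H2-DMb2 and Il4i1. Because the libraries fall into 4 high ones and 12 others, no pooled correlation is given. For 8 of these 9, all but Arhgdib, the 4 libraries were the 4 highest. H2-Eb2 and H2-DMb2, class II genes, were 0.901 to 1.896 and 1.32 to 2.76 CPM in the 12 libraries and reached 19.9 and 17.9 CPM. Clu, which encodes clusterin and is abundant in follicular dendritic cells, was 30.5 to 45.4 CPM in the 12 and 70.7 to 185 CPM in the 4. Ets1, a transcription factor of lymphocytes, was 35.5 to 46.04 CPM and 57.2 to 89.99 CPM. Among them, Clu and Mfge8 are genes that follicular dendritic cells, which are stromal cells, are known for.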

How the data were processed

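Poly(A) RNA of the ileum of 16 mice was sequenced (TruSeq Stranded mRNA libraries, single-end reads of 100 bases). For alignment the authors used STAR 2.5.2 and the mm10 genome and kept reads that mapped to 1 position with at most 4 mismatches. They counted reads over exons with HOMER 4.10, 1 RefSeq transcript per gene, and the deposited values are raw counts. Tool versions are those of the submitters' processing notes. The strand option and the annotation version are not given in the sources used here, so a member's reads may include those of an overlapping gene on the other strand.

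Groups were taken from the sample titles. Tests were made with edgeR 4.0.16 in R 4.3.3 by its quasi-likelihood method (F-test, legacy default, robust fits) with trimmed mean of M-values scaling, filterByExpr by group, Benjamini-Hochberg adjustment over all genes tested and a threshold of 0.05. The SE is the log2 fold change divided by the square root of F. Fits of 2 groups used their 8 libraries, and the interaction and both-sexes fits used 16. The scripts were tested on simulated data.

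The 33 genes, their roles and all lists were chosen with earlier results of these data known. Values per library are given for the 2 members per role with the highest mean RPKM. Ms4a1, Fcer2a, Fcmr, Cr2, Cxcr5, Pax5 and Cd72 were given in more detail after their values were seen. Values of some genes in the other lists are not reported here. Alternatives were DESeq2 1.42.0, other scalings, filters and quasi-likelihood settings, 1 fit over all libraries, a replicate block, and leaving out each library. The numbers in the sample titles were used as covariates in the both-sexes fit only. In males these numbers ran from 6339 to 6359 in WT and from 6360 to 6444 in LKO. Genotype and title number therefore cannot be told apart in males. In LKO the numbers of females ran from 6310 to 6364, and male LKO replicates 2, 3 and 4 lay above them (6392, 6395 and 6444). Sex and title number were thus partly mixed in LKO, and that comparison was not adjusted for the number. Leaving out the 4 libraries together was added after seeing the data.

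Numbers shared between groups did not pair the libraries: correlations of the deviations of same-numbered libraries lay between -0.10 and 0.26.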

Additional observations from a re-analysis of the deposited data

Results flagged for a closer look

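In groups of 4 libraries, Dixon's ratio, which is the gap between the most extreme library and its neighbour over the range of the group, was compared with its critical value for 4 samples, for the summed level and the 14 genes given by library. Of the 60 ratios, 10 were above it. Of these, 7 came from male WT, each with male WT replicate 2 as the highest library: the summed level (0.941), Cd37 (0.884), Blk (0.985), Ltb (0.867), Tnfrsf13c (0.912), Cd83 (0.939) and H2-Ob (0.937). The 15 measures share the same libraries, so these ratios are not independent. Male WT replicate 2 had been named as high on the sum of the same genes. The count of ratios is therefore a description and is not compared with chance. In female LKO, where 2 libraries were high, only Tnfrsf13b was past the critical value, with female LKO replicate 3 as the highest (0.876). In male LKO, where no library stood apart in the sum, Cd37 was highest in replicate 2 (0.846, 6.84 CPM) and Pou2af1 in replicate 4 (0.912, 23.1 CPM).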

How the results depend on the processing

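The count of members called was 0 in every alternative for 5 of the 6 comparisons. For male against female LKO it was 0 except under DESeq2. There DESeq2 called 16 with all 8 libraries and 1, Cd83, without the 4 high libraries. With all 8 libraries DESeq2 took Cd79a (adjusted p 0.0440) and Cd72 (0.00712) past the threshold.

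Leaving out the 4 high libraries, an alternative added after seeing the data, moved the median log2 fold change of the members in all 6 comparisons: to 0.081 in males (from -0.51), 0.0082 in females (from 1.56), 0.049 for the interaction (from -1.999), -0.29 for male against female WT (from 0.028), -0.21 for male against female LKO (from -1.88) and 0.071 over both sexes (from 0.60, with 18 of 30 members positive in place of 33 of 33). The log2 fold change of Cd79a changed sign with it, to 0.11 in males and -0.26 for male against female WT.

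With 1 library left out at a time the median lay between -0.70 and 0.081 in males (0.081 without male WT replicate 2), 0.75 and 1.90 in females (0.75 without female LKO replicate 3), 0.059 and 1.004 over both sexes (0.059 without female LKO replicate 3), -2.31 and -1.26 for the interaction, -0.59 and 0.28 for male against female WT (-0.59 without male WT replicate 2, -0.035 without female WT replicate 1) and -2.29 and -1.17 for male against female LKO. The count of members called was 0 each time. Cd79a then lay between -0.72 and 0.11 in males and between -0.43 and 0.39 for male against female WT, with the positive male value and the lowest value of the sexes both without male WT replicate 2. The replicate block gave -0.058 for male against female WT, with 0 members called in each comparison, and it changed no call.

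Depth limits the steepest genes: with 15.7 M counts or more per library, Pax5, Fcmr, Fcer2a, Cr2 and Mef2b had 0 to 2 counts in their lowest libraries, so their level there is known only as near 0. The sources used here do not say whether Peyer's patches were kept in or left out of the sampled ileum.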
